A study of Danio rerio with 12 samples.

Results

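The comparison described here sets whole zebrafish exposed for 48 h to a mixture of BaP and diclofenac against fish exposed to diclofenac alone. BaP is benzo[a]pyrene, a polycyclic aromatic hydrocarbon formed in combustion, and diclofenac is a non-steroidal anti-inflammatory drug. The comparison asks what BaP adds to the RNA profile when diclofenac is already present. Every entry with an average of at least 1 CPM (a count put on the same scale in every library) was included, which kept 21622 of the 35497 entries of the authors' deposited table. The entries next to that limit averaged 0.00049 on the log2 CPM scale just inside it and -0.00044 just outside.

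An entry stands for 1 transcript class of 1 identifier, and some genes are split over several entries. The series holds 12 whole-body libraries in 4 groups of 3 (Control, BaP, diclofenac, mixture), described by the labels as independent replicates. The difference compared here rests on the 6 libraries of the mixture and of diclofenac. The spread used to test it was taken from the comparisons of all treatments with Control. The sources used here do not give strain, age or doses, and the comparison assumes that the mixture held diclofenac at the dose used alone. Where BaP alone is set beside the comparison, an equal BaP dose alone and in the mixture is assumed as well. The deposited table gives each treatment against Control with the replicates already combined, so no value per library, SD or library depth can be shown. The labels give 40 to 80 M reads of 150 bp per library. The tissue label could be checked against 36 marker genes of 12 tissues, from muscle and lens to liver and blood, of which 34 averaged at least 1 CPM. Of the 2 others, both of the exocrine pancreas, cpa1 was below that level and cela1.2 was not matched.

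The Ah receptor is a transcription factor that BaP and related planar compounds activate by binding to it. It waits in the cytoplasm with the chaperone Hsp90, moves to the nucleus, pairs with Arnt and switches on genes for cytochrome P450 enzymes of family 1, for conjugating enzymes, and for its own repressors Ahrr and Tiparp. In zebrafish larvae the receptor Ahr2 carries most of this response. Diclofenac acts on cyclooxygenases, which make prostaglandins.

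The difference between the mixture and diclofenac was taken as the log2 fold change of the mixture against Control minus that of diclofenac against Control, so that Control cancels. Its standard error (SE) was implied by the squared fold change over the likelihood ratio, and an approximate two-sided Wald test was adjusted by the Benjamini-Hochberg method over all 21622 entries. An entry was called at an adjusted p under 0.05. By that rule 79 entries were called, 0.365% of those tested, with 48 higher (0.222%) and 31 lower (0.143%) in the mixture, and 59 differed at least 2-fold. Of the 79, 13 were entries of Ah receptor targets, all higher, 7 were in the lens lists, all lower, and 2 were in the skeletal muscle list, both higher. The other 57 were in none of these lists. Before adjustment 1589 entries had a p under 0.05, where uniform p-values would give 1081. The test assumes equal spread in the groups. With the upper bound for the variance (the sum of the mixture's and diclofenac's implied variances) 15 entries were called, 14 higher and 1 lower.

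**Figure D1:**
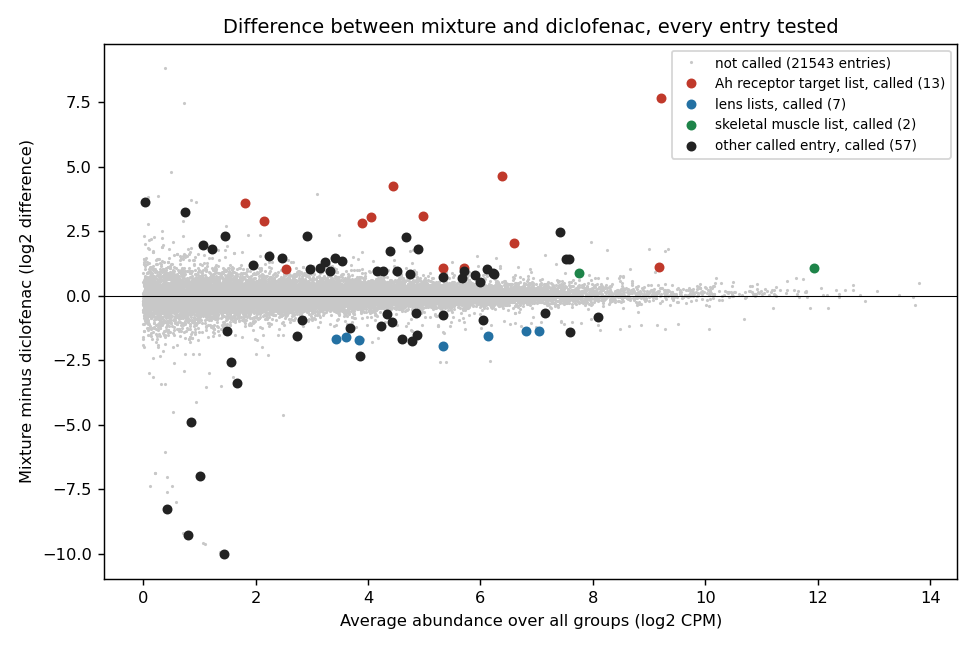
Mixture minus diclofenac (log2 difference, vertical) against average abundance over all groups (log2 CPM, horizontal) for every entry tested; each point is 1 entry and the large points are the 79 called. The highest large red point is cyp1a at 7.66, 7 called lens entries lie below 0, and the called entries below -4 lie at the left edge, where abundance is low.

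Among the family 1 cytochrome P450 genes, which oxidise BaP and other aromatic compounds, cyp1a and cyp1c1 had the 2 largest differences of the 48 higher entries. For cyp1a (ENSDARG00000098315), the classical target of the receptor, the authors' deposited table gives log2 fold changes against Control of 6.80 with BaP, -0.38 with diclofenac and 7.28 with the mixture. The mixture exceeded diclofenac by 7.66 ± 0.32 (log2, implied SE), a 202-fold difference with a 95% interval of 7.03 to 8.28 on the log2 scale (Wald test, adjusted p = 4.31e-121). Its low value with diclofenac alone did not pass against Control (adjusted p = 0.379). For cyp1c1, the values in the authors' deposited table are 2.93 with BaP, -0.72 with diclofenac and 3.91 with the mixture, and the difference was 4.63 ± 0.24 (adjusted p = 5.45e-79). For its neighbour in the family, cyp1c2, the difference was 2.83 ± 0.30 (adjusted p = 5.68e-18).

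The P450 gene cyp1b1 differed from these in that diclofenac alone already raised it. Of its entries the one with more reads, annotated as a nonsense-mediated decay transcript, stands in the authors' deposited table at 3.61 with BaP, 1.16 with diclofenac and 4.27 with the mixture. The difference between mixture and diclofenac was 3.11 ± 0.22 (adjusted p = 7.45e-42), and the protein-coding entry gave 3.05 ± 0.37 (adjusted p = 2.33e-13). The last member of the family, cyp1d1, which is known in zebrafish not to follow the receptor as the others do, had a difference of -0.30 ± 0.20 (adjusted p = 0.816).

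Feedback regulators of the receptor were also higher. The repressor gene ahrra was higher by 3.60 ± 0.48 (adjusted p = 1.30e-10), a 12.1-fold difference at an average of 3.53 CPM. For tiparp, which encodes another repressor of the receptor, the authors' deposited table gives 0.57 with BaP, -0.03 with diclofenac and 1.05 with the mixture. BaP alone did not pass against Control (adjusted p = 0.181). The difference between mixture and diclofenac, 1.08 ± 0.17, passed (adjusted p = 8.95e-08). The test of whether this exceeds what BaP did alone gave 0.52 ± 0.23 and did not pass (interaction, adjusted p = 0.999), so a change of tiparp with BaP that needs diclofenac was not shown.

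The forkhead transcription factor genes foxq1a and foxq1b, which are both in the Ah receptor target list, were higher. In the authors' deposited table foxq1a stands at 2.25 with BaP, -1.14 with diclofenac and 3.13 with the mixture, so that its direction turned between diclofenac and mixture. The difference was 4.28 ± 0.26 (adjusted p = 9.19e-57), 19.4-fold. Its relative foxq1b was higher by 1.04 ± 0.27 (adjusted p = 0.0310). With the upper-bound variance foxq1a was still called and foxq1b was not.

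Genes of conjugating enzymes, which attach sugars, sulfate or glutathione to oxidised compounds for excretion, followed. The glucuronosyltransferase gene ugt1b1 was at 0.76 with BaP, -1.0 with diclofenac and 0.82 with the mixture in the authors' deposited table, and the difference of 1.82 ± 0.26 passed (adjusted p = 5.69e-09). The sulfotransferase gene sult6b1 was higher by 2.04 ± 0.31 (adjusted p = 1.32e-07) and ugt1b5 by 1.09 ± 0.24 (adjusted p = 0.00257). The glutathione transferase genes gstp1 and gstp2 were higher by 1.11 ± 0.28 and 2.90 ± 0.58 (adjusted p = 0.0238 and 6.25e-04). With the upper-bound variance ugt1b1 and sult6b1 were still called, and ugt1b5, gstp1 and gstp2 were not. The gstp and ugt1b genes have close copies, so how reads were divided between copies is uncertain. Of 33 tested phase II conjugation genes 5 were higher and 0 lower, where 0.22% of all symbols were called higher, and the median difference was 0.29 beside 0.01 over all symbols. Of these 5, 4 are also in the Ah receptor target list. The microsomal electron carrier gene cyb5a, outside the lists, was higher by 1.04 ± 0.24 (adjusted p = 0.0101). Cytochrome P450 genes outside family 1 gave no call, with 0 of 29 called in either direction (Wald test) and a median of -0.06. Before adjustment 1 was higher and 3 lower at p under 0.05, against 3.92% and 2.93% of all symbols.

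Over the whole list of Ah receptor targets, 12 of 20 tested members were higher (0.22% of all symbols) and 0 lower (0.126%). The median difference was 1.1 (log2), with quartiles of 0.86 and 2.95. Against Control 16 of the 20 were higher with the mixture (8.33% of all symbols) and 4 with diclofenac (8.7%). This list and all other gene lists here were chosen with earlier results of these data known. Their counts and directions, also beside the shares over all symbols, are therefore descriptions. The members that did not pass included wfikkn1 at 2.90 ± 0.80 (adjusted p = 0.0623), the Nrf2 relative nfe2l2b at 1.00 ± 0.30 (adjusted p = 0.120), the dehydrogenase gene dhrs13l1 at 1.02 ± 0.36 (adjusted p = 0.312) and nqo1, a quinone reductase, at 0.44 ± 0.30 (adjusted p = 0.812). The calcium-binding protein gene s100u and the aldehyde dehydrogenase gene aldh3a2b were at 0.21 ± 0.18 and -0.01 ± 0.38 (adjusted p = 0.876 and 0.998). For nfe2l2b each agent alone gave a like value in the authors' deposited table, 1.92 with BaP and 2.04 with diclofenac, and the mixture was at 3.04. The carrier gene slc16a9a differed in pattern: the authors' deposited table has it at -0.12 with BaP, 3.83 with diclofenac and 3.21 with the mixture.

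**Figure D2:**
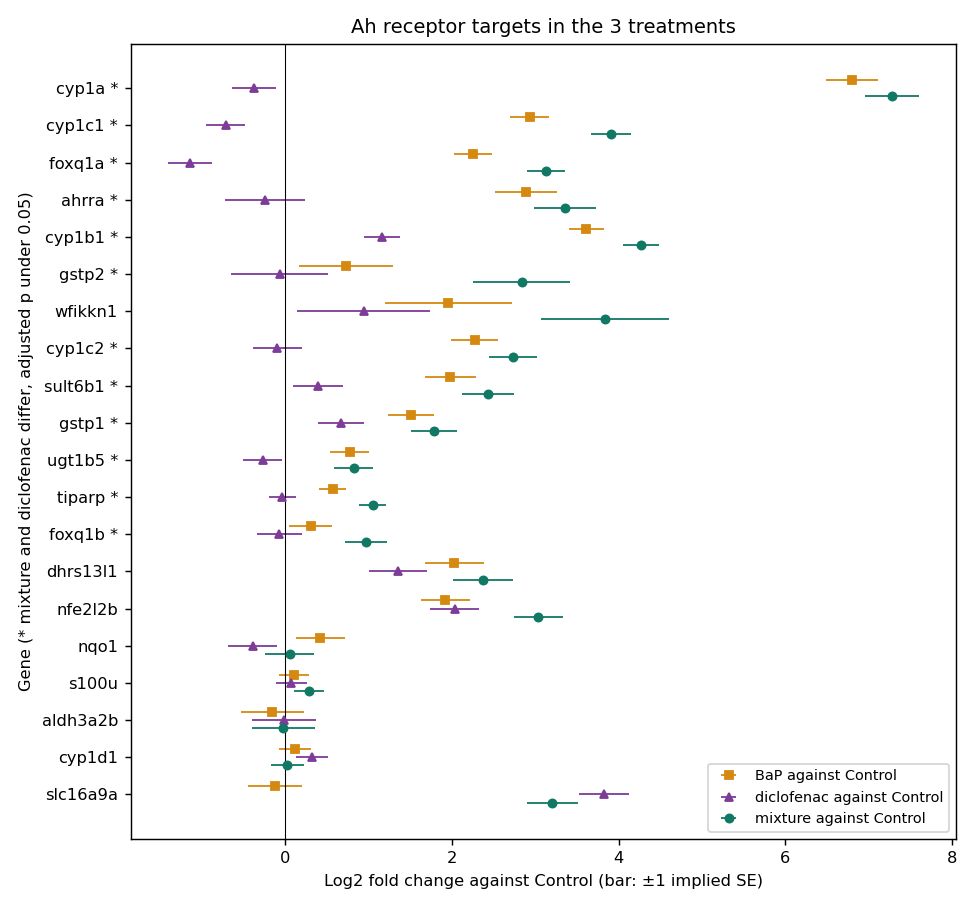
Log2 fold change against Control (horizontal, bars ±1 implied SE) of the 20 tested Ah receptor targets with BaP (squares), diclofenac (triangles) and the mixture (circles), in the authors' deposited table; genes are ordered by mixture minus diclofenac and a star marks the 12 called. For most starred genes the squares and circles lie to the right of the triangles. Some triangles stand away from 0, among them cyp1b1 at 1.16, foxq1a at -1.14 and cyp1c1 at -0.72, while slc16a9a has its square at -0.12.

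The receptor machinery itself was not called, taking the most abundant entry of each gene. None of 8 tested genes for receptors and partners passed (Wald test). Before adjustment 1 was higher and 1 lower at p under 0.05, against 3.92% and 2.93% of all symbols. The receptor gene ahr2 differed by 0.31 ± 0.16 (adjusted p = 0.686) and ahr1b by -0.18 ± 0.23 (adjusted p = 0.927). The partner genes arnt and arnt2 differed by -0.79 ± 0.31 and -0.27 ± 0.14 (adjusted p = 0.410 and 0.722), and the abundant entry of the chaperone gene hsp90ab1 by 0.01 ± 0.16 (adjusted p = 0.992). The retained-intron entry of hsp90ab1, averaging 5.38 log2 CPM, stands apart in the authors' deposited table, at 1.28 with diclofenac and -1.28 with the mixture. This less abundant entry is outside the count of 8 genes, and its test result is not given here. The p23 co-chaperone genes ptges3a and ptges3b were at 0.44 ± 0.23 and 0.57 ± 0.26 (adjusted p = 0.689 and 0.597).

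The same agent was also given without diclofenac, in other libraries, so BaP against Control can be set beside this comparison. The fold changes of the 2 comparisons share no samples. Their tests are not fully independent, since the implied SE used here also draws on BaP against Control. That comparison called 32 entries (0.148%), of which 25 were higher (0.116%) and 7 lower (0.0324%). Of the 25 higher entries 13 were called higher here too, 1 was called lower here, and 24 had a difference above 0. Of the 7 lower entries 0 were called lower here. Entries called in the same direction in both made up 40.6% of the calls with BaP alone and 16.5% of the 79 here. Among the shared entries outside the target list were pkhd1l1, a fibrocystin relative, and an uncharacterised gene (ENSDARG00000109310), which differed here by 2.27 ± 0.29 and 2.46 ± 0.28 (adjusted p = 1.91e-11 and 1.07e-14). Diclofenac alone lowered both, to -1.17 and -1.10 in the authors' deposited table, while BaP alone raised them by 1.59 and 1.65. The ammonia channel gene rhcgb, at an average of 1.68 CPM, had a like pattern of 2.64 with BaP, -2.11 with diclofenac and 1.13 with the mixture in the authors' deposited table, and a difference here of 3.23 ± 0.72 (adjusted p = 0.00431).

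Whether BaP did more or less beside diclofenac than alone was tested as mixture minus diclofenac minus BaP, each against Control, with the variance multiplied by 2. The test takes the BaP dose as equal alone and in the mixture. An unequal dose could not be told apart from an interaction. By this interaction test 10 entries were called (0.0462%), 3 higher (0.0139%) and 7 lower (0.0324%), and 7 of the 10 were also among the 79. The interaction contains the mixture minus diclofenac difference, so this overlap is partly built in. In the Ah receptor response 2 genes passed. For foxq1a the difference with BaP was larger beside diclofenac by 2.02 ± 0.37 (adjusted p = 2.86e-04) and for cyp1c1 by 1.70 ± 0.34 (adjusted p = 0.00245). In both, diclofenac alone had lowered the gene and the mixture stood above BaP alone, by 0.88 and 0.98 on the log2 scale, a difference that was not tested. For cyp1a the interaction was 0.85 ± 0.45, with a 95% interval of -0.04 to 1.74 (adjusted p = 0.999), and for cyp1b1 -0.50 ± 0.31 (adjusted p = 0.999). With the sum of the mixture's and diclofenac's implied variances, again multiplied by 2, 1 interaction call was left, a higher one. Which entry it was is not given here, so neither foxq1a nor cyp1c1 is shown to hold. This sum leaves out the variance of BaP and is no upper bound for the interaction.

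**Figure D3:**
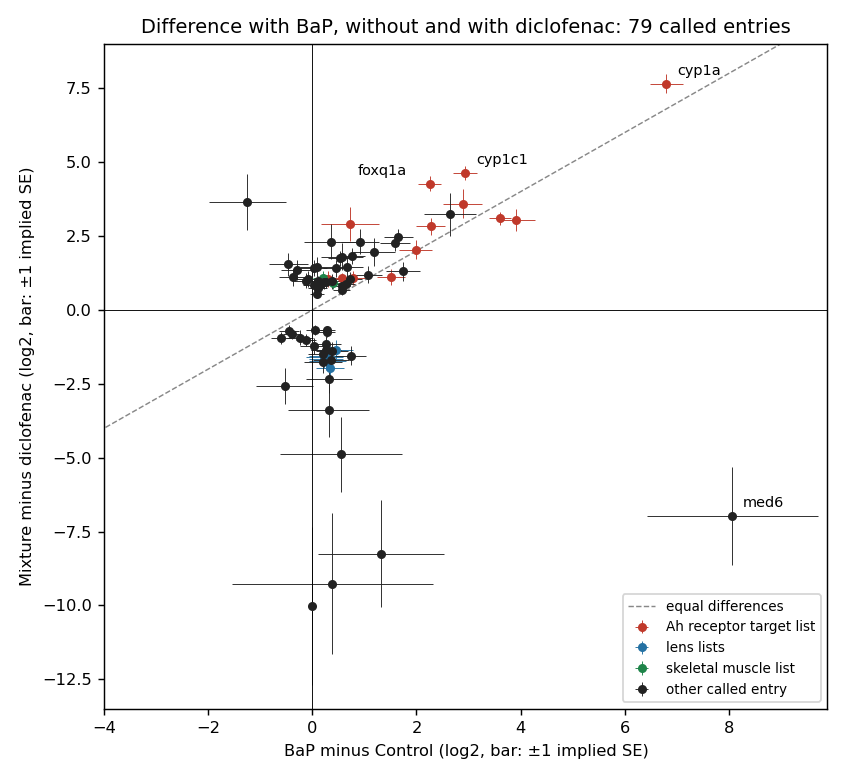
Mixture minus diclofenac (vertical) against BaP minus Control (horizontal), both log2 with bars of ±1 implied SE, for the 79 called entries; the dashed line marks equal differences. Ah receptor targets lie at the upper right, with cyp1a at 6.80 and 7.66, while the lens entries (blue) lie below 0 vertically and between 0 and 1 horizontally. The entry at the lower right is med6, which averaged 2.01 CPM, and ptmaa, at 0 and -10.03, has no implied SE horizontally and its vertical bar falls on the axis line.

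The lower entries were led by genes of the eye lens. Lens fibre cells fill themselves with crystallins, build beaded filaments from Bfsp1 and Bfsp2, and degrade their nuclei and organelles to become transparent, steps in which the transcription factor Hsf4 and, in zebrafish, the nuclease Dnase1l1l take part. In these whole-body samples fewer lens cells and less RNA per lens cell cannot be told apart.

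The beaded filament gene BFSP1 (ENSDARG00000074919) stands in the authors' deposited table at 0.33 with BaP, 0.61 with diclofenac and -1.35 with the mixture. The mixture was below diclofenac by -1.95 ± 0.28 on the log2 scale, 3.87-fold, with a 95% interval of -2.50 to -1.40 (adjusted p = 5.69e-09). Neither agent alone passed against Control for this gene (adjusted p = 1 for BaP and 0.115 for diclofenac), and the interaction, -2.29 ± 0.40, did (adjusted p = 7.78e-05). Its partner bfsp2 is at 0.26, 0.64 and -0.94 in the authors' deposited table, in the same order of treatments. The bfsp2 difference was -1.57 ± 0.34 (adjusted p = 0.00233). The same order, with values for both single agents above 0 and for the mixture below 0, was seen in lim2.5, which encodes a lens membrane protein (difference -1.73 ± 0.36, adjusted p = 0.00117), and in dnase1l1l (-1.60 ± 0.37, adjusted p = 0.00660). For hsf4 the authors' deposited table gives 0.26 with BaP, -0.19 with diclofenac and -1.86 with the mixture, and the difference was -1.67 ± 0.35 (adjusted p = 0.00146).

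Of 26 tested lens fibre and regulator genes 5 were lower and 0 higher, where 0.126% of all symbols were called lower. The lens lists too were chosen with earlier results of these data known. The median difference was -0.92, and 13 members were lower at an unadjusted p under 0.05, against 2.93% of all symbols. Channel and junction genes were among those that did not pass, with mipb and mipa, the lens aquaporins, at -1.34 ± 0.38 and -1.16 ± 0.40 (adjusted p = 0.0710 and 0.280) and gja8b, a lens connexin, at -0.51 ± 0.53 (adjusted p = 0.902). Regulators of early lens and eye development did not pass either and varied in size. The forkhead gene foxe3, at an average of 2.35 CPM, was at -1.20 ± 0.45 (adjusted p = 0.358), from 1.36 with diclofenac to 0.15 with the mixture in the authors' deposited table, beside pitx3 at -0.00 ± 0.25, prox1a at -0.17 ± 0.24 and sox2 at 0.27 ± 0.22 (adjusted p = 1, 0.933 and 0.867).

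**Figure D4:**
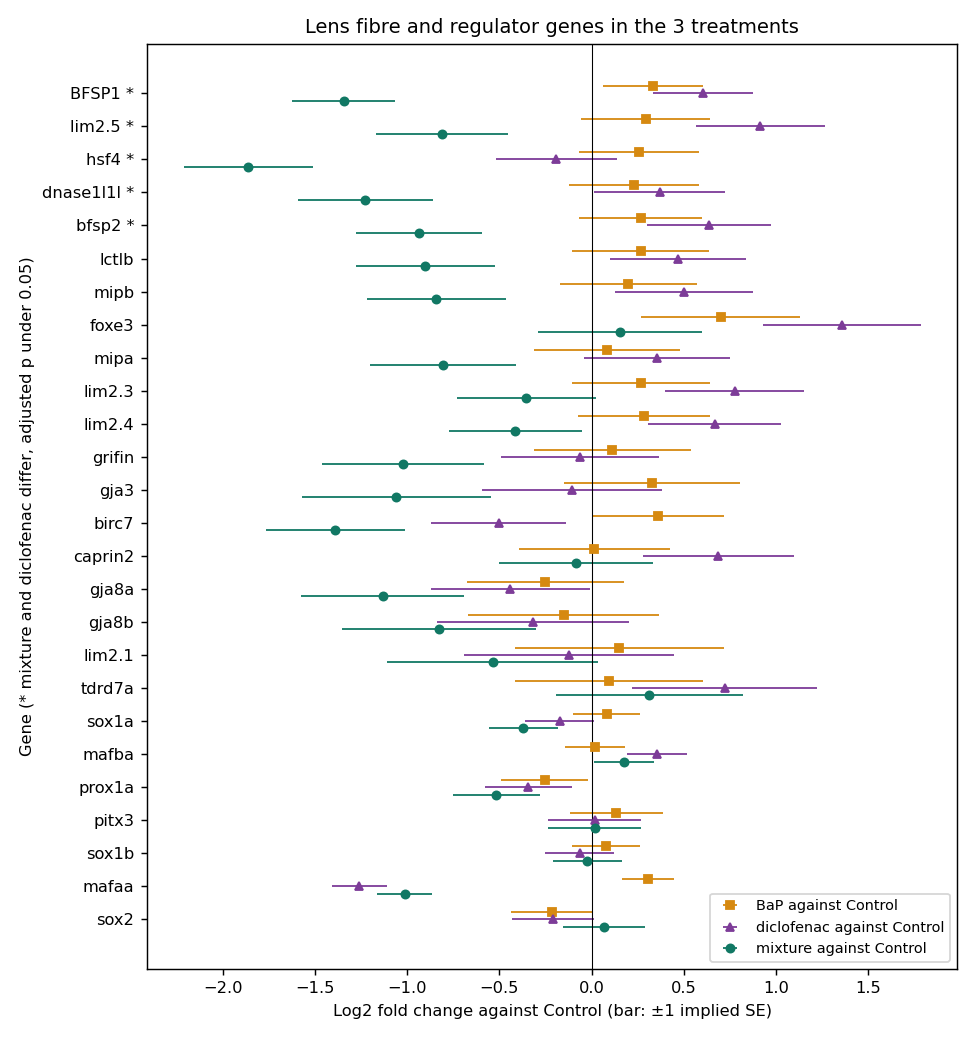
Log2 fold change against Control (horizontal, bars ±1 implied SE) of the 26 tested lens fibre and regulator genes with BaP (squares), diclofenac (triangles) and the mixture (circles), in the authors' deposited table; genes run from the lowest mixture minus diclofenac at the top to the highest, and a star marks the 5 called. In the starred genes the circles lie at -0.81 or below and the squares and triangles at -0.19 or above.

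Crystallins, the bulk proteins of the lens, lay lower as a group but few passed singly. Of 40 tested crystallin genes 2 were lower (0.126% of all symbols) and 0 higher (0.22%). A difference below 0 was found in 39, and 33 were lower at an unadjusted p under 0.05, against 2.93% of all symbols. The median was -1.12, with quartiles of -1.23 and -1.0, against an implied SE of 0.39 for the median member. The members called were crygm2d1 at -1.36 ± 0.33 and crygm2d4 at -1.35 ± 0.34 (adjusted p = 0.0178 and 0.0232), and the crygm2d genes are so alike that reads may be shared out wrongly between them. The list's median log2 fold changes in the authors' deposited table were 0.30 with BaP, -0.20 with diclofenac and -1.25 with the mixture. Against Control 25 of the 40 were lower with the mixture (7.13% of all symbols) and 2 with diclofenac (8.07%). The members share 1 tissue and the same libraries, so they are not independent of each other.

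Genes outside the lists, some of them known from the lens, were also among the lower entries by the rule for named genes. The gene lgsn, for the lens protein lengsin, was lower by -1.76 ± 0.38 (adjusted p = 0.00294). The lens-expressed lactase-like gene lctla has a pair of identifiers in the table, and they were lower by -2.34 ± 0.46 and -1.68 ± 0.35 (adjusted p = 3.00e-04 and 0.00140). The calpain gene capn3a, whose tissue these whole-body data do not give, was lower by -1.41 ± 0.31 (adjusted p = 0.00344). Periaxin, encoded by prx and known from lens fibres and myelinating glia, differed by -0.68 ± 0.15 (adjusted p = 0.00215). In the authors' deposited table prx is at 0.29 with BaP, 0.45 with diclofenac and -0.23 with the mixture, and its interaction of -0.97 ± 0.21 passed (adjusted p = 0.00886).

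Photoreceptors are the other eye tissue in the lists. Of 36 tested photoreceptor genes 0 were called (Wald test), with a median difference of -0.12. Before adjustment 1 was higher and 3 lower at p under 0.05, against 3.92% and 2.93% of all symbols. The medians of the photoreceptor genes against Control in the authors' deposited table were -0.44 with diclofenac and -0.62 with the mixture. The transcription factor gene nrl, known from rods and, in zebrafish, from the lens, was lower by -1.35 ± 0.34 (adjusted p = 0.0232). It is in neither the photoreceptor list nor the lens lists and was named after its value was seen. Among neuron and glia genes 0 of 62 were called (1 higher and 2 lower unadjusted) and the median was -0.05. The lens calls depended on the spread assumed: with the upper-bound variance BFSP1 was the lone lens gene still called. That call is for the mixture against diclofenac. With the same sum of variances the interaction test had 0 lower calls, so the interactions of BFSP1 and prx were not kept.

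The remaining lower entries were of mixed kind. The threonine dehydrogenase gene tdh2 was lower by -1.50 ± 0.29 (adjusted p = 2.91e-04), the matrix protein gene sparcl1 by -1.01 ± 0.21 (adjusted p = 8.58e-04), the mitochondrial flavoprotein gene aifm5 by -1.55 ± 0.32 (adjusted p = 0.00117), the pentose phosphate enzyme gene tkta by -0.95 ± 0.20 (adjusted p = 0.00155) and the RNA-binding protein gene stau2 by -0.76 ± 0.16 (adjusted p = 0.00205). The amino acid transporter gene slc43a2b had been raised by diclofenac and less so by the mixture, 2.22 and 1.4 in the authors' deposited table, a difference of -0.82 ± 0.18 (adjusted p = 0.00215). Of the 31 lower entries 18 were below Control with the mixture and not called with diclofenac, and 10 were above Control with diclofenac and not called with the mixture. The entries were selected on the same mixture and diclofenac libraries, so this split is partly built in and carries no test.

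Against Control, diclofenac called 16.2% of all entries (8.52% higher, 7.64% lower) and the mixture 14.8% (8.12% higher, 6.67% lower). Among the 48 entries higher in the mixture than in diclofenac, 29 were called below Control with diclofenac alone. With the mixture 10 of these 29 were still below Control, 14 were not called and 5 were above. Another 15 were above Control with the mixture and not called with diclofenac. The difference described here and the fold change of diclofenac rest on the same diclofenac libraries with opposite sign, so a chance low value in those libraries would lower the one and raise the other. The fold change of the mixture shares the mixture libraries with the difference, with the same sign. These counts therefore describe the entries and carry no test.

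Muscle genes made up part of those still below Control. The skeletal actin gene acta1b (ENSDARG00000055618), at an average of 3919 CPM, stands in the authors' deposited table at 0.21 with BaP, -1.99 with diclofenac and -0.90 with the mixture. The difference was 1.09 ± 0.21, 2.13-fold (adjusted p = 2.54e-04). The muscle calcium pump gene atp2a1l is at -2.63 with diclofenac and -1.73 with the mixture in the authors' deposited table, a difference of 0.90 ± 0.21 (adjusted p = 0.00674). The adenine nucleotide carrier gene slc25a4 and the sodium pump gene atp1a2a, both outside the muscle list, were higher by 1.42 ± 0.27 and 1.75 ± 0.26 (adjusted p = 2.78e-04 and 2.96e-08). For slc25a4 the authors' deposited table gives 0.02 with BaP, -3.08 with diclofenac and -1.66 with the mixture. The calpain gene capn3b and the muscle fructose bisphosphatase gene fbp2, named after their values were seen, were higher by 0.80 ± 0.17 and 0.95 ± 0.22 (adjusted p = 0.00278 and 0.0101). These whole-body data do not give the tissue of capn3b. With the upper-bound variance atp1a2a was still called, and acta1b, atp2a1l and slc25a4 were not (adjusted p = 0.223, 0.795 and 0.222), nor were capn3b and fbp2.

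Over the whole list of 77 tested skeletal muscle genes 2 were higher (0.22% of all symbols) and 0 lower (0.126%), and the median difference was 0.13, with quartiles of -0.08 and 0.39. At an unadjusted p under 0.05 there were 18 higher, against 3.92% of all symbols, and 3 lower. Against Control 46 of the 77 were lower with diclofenac (8.07% of all symbols) and 39 with the mixture (7.13%). Of the 77 genes, 55 had a difference above 0 and 22 below, the lowest at -0.67. The members that did not pass and are named here were picked from the high end after their values were seen. They are the fast troponin gene tnni2b.2 at 0.85 ± 0.29 (adjusted p = 0.283), the parvalbumin gene pvalb1 at 0.67 ± 0.24 (adjusted p = 0.329) and the AMP deaminase gene ampd1 at 1.03 ± 0.47 (adjusted p = 0.589). None of the muscle genes passed the interaction test. Genes of muscle stress and atrophy had a median of 0.01, with 0 of 25 called and 0 at an unadjusted p under 0.05.

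Prostaglandin genes, which stand closest to the action of diclofenac, gave 1 call. The prostaglandin transporter gene slco2a1, whose product takes prostaglandins up into cells, is at 0.92 with BaP, -1.85 with diclofenac and 0.47 with the mixture in the authors' deposited table. The difference was 2.31 ± 0.41, 4.97-fold (adjusted p = 2.24e-05). Genes of the cyclooxygenases themselves, ptgs1, ptgs2a and ptgs2b, differed by 0.29 ± 0.19, -0.12 ± 0.28 and 0.28 ± 0.41 (adjusted p = 0.807, 0.969 and 0.938), so no difference in them was shown. The synthase genes ptges and ptgdsb.2 were at 0.65 ± 0.26 and 0.81 ± 0.31 and did not pass (adjusted p = 0.450 and 0.404), nor did hpgd, which starts prostaglandin breakdown, at 0.28 ± 0.23 (adjusted p = 0.864). Of 19 tested prostaglandin genes 1 was higher (0.22% of all symbols) and 0 lower (0.126%), with a median of 0.28 beside 0.01 over all symbols. At an unadjusted p under 0.05 there were 5 higher, against 3.92% of all symbols. The members not yet named, among them the prostaglandin E receptor genes ptger1a, ptger2a, ptger3 and ptger4b and the lipoxygenase genes alox5a and alox12, lay between -0.84 (alox5a) and 0.66 (ptgr1, a prostaglandin reductase gene).

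Several large gene groups lay slightly to one side without a single call. Of 46 proteasome genes 45 had a difference above 0, with a median of 0.40, 0 called (Wald test), and before adjustment 11 higher and 1 lower at p under 0.05. Of 78 nuclear genes of the respiratory chain 74 were above 0, with a median of 0.32, 0 called and 9 higher unadjusted. Of 75 DNA replication and mitosis genes 69 were above 0, with a median of 0.31, 0 called and 9 higher unadjusted. Other lists without a call lay to one side too. Cytosolic ribosomal proteins had 69 of 78 above 0, and neurons and glia had 43 of 62 below 0. Over all symbols 52.5% were above 0 and the quartiles were -0.16 and 0.19. At an unadjusted p under 0.05, 3.92% of all symbols were higher and 2.93% lower. The members of such groups vary together between libraries, so these counts carry no test. For DNA replication and mitosis the median against Control in the authors' deposited table was 0.14 with diclofenac and 0.47 with the mixture. The proteasome median was -0.37 with diclofenac and 0.01 with the mixture, and that of the respiratory chain -0.39 and -0.05. Mitochondrially encoded genes, by contrast, were at -0.76 and -0.80, and their median difference here was 0.04 with 0 of 13 called and 0 at an unadjusted p under 0.05.

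Stress and damage lists gave no calls either. Among 42 heat shock and chaperone genes 0 were called and 14 were higher unadjusted, against 3.92% of all symbols (median 0.24). The members with the largest differences, picked after their values were seen, were hsp90aa1.2 at 2.1 ± 0.72 (adjusted p = 0.283), the Hsp70 genes hsp70.3, hsp70.2, hsp70.1 and hsp70l at 1.83 ± 0.74, 1.81 ± 0.69, 1.77 ± 0.72 and 1.75 ± 0.70 (adjusted p between 0.398 and 0.450), and the Hsp40 co-chaperone gene dnajb1b at 1.59 ± 0.56 (adjusted p = 0.303). Diclofenac alone had already raised the Hsp70 genes, hsp70l by 7.31 and with the mixture by 9.06 in the authors' deposited table, and these genes have close copies among which reads may be misassigned. Among 32 genes of the unfolded protein and integrated stress responses 0 were called and 11 were higher unadjusted (median 0.09). The Hsp70-binding protein gene hspbp1, which is in neither list and was named after its value was seen, was higher by 0.73 ± 0.18 (adjusted p = 0.0226), from 2.49 with diclofenac to 3.22 with the mixture in the authors' deposited table. Of 39 p53 and DNA damage response genes 0 were called and 2 were higher unadjusted (median 0.09), and of 60 DNA repair genes 0 were called and 3 were higher unadjusted (median 0.14). Nrf2 and glutathione genes had 0 of 36 called and 6 higher unadjusted, with a median of 0.24. In all, 35 of the 42 lists had no member called.

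**Figure D5:**
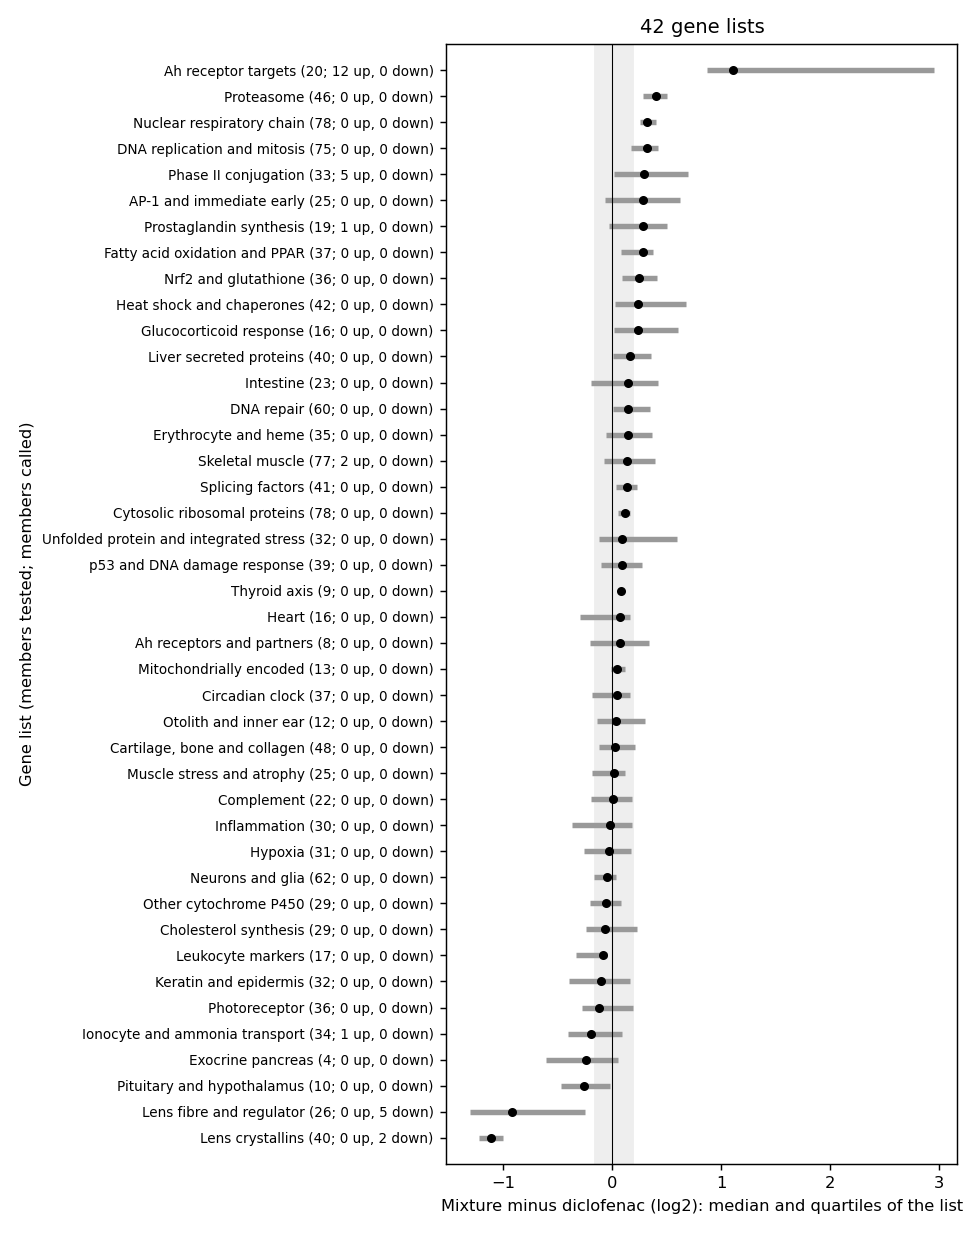
Mixture minus diclofenac (log2, horizontal) for the 42 gene lists: the point is the list's median, the grey bar its quartiles, and the numbers beside each name give members tested and called. The pale band marks the quartiles of all symbols, -0.16 to 0.19. Ah receptor targets stand apart at 1.1 and both lens lists at -0.92 and -1.12, and the other medians lie between -0.26 and 0.40.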

How the data were processed

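Whole-body zebrafish RNA (12 libraries, 4 groups of 3, polyA RNA) was sequenced; groups come from the sample titles. As tools, kallisto, limma and edgeR appear in the submitters' processing notes, and GRCz11 as the build; the sources used here give no version, filter or scaling. Per the file headers, the deposited values are a log fold change of each treatment against Control (taken as log2, since the deposited averages, read as log2 CPM and raised from 2, add up to 1.01e+06), a likelihood ratio, which is a score with no fixed range, and a deposited p-value not adjusted for multiple testing. The 3 deposited average columns are identical.

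Differences, implied variances (the largest of 3 per entry; the largest exceeded the smallest by a median factor of 1.03), Wald tests on 1 degree of freedom and Benjamini-Hochberg adjustment were computed in Python 3.11.15 (scipy 1.17.1) and tested on simulated data. For BaP, diclofenac and mixture against Control, the deposited p-values were adjusted the same way. The simulated data could not show whether the spread was equal between the groups of this series.

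The 42 lists and the genes described were chosen with earlier results of these data known. Each list used 1 entry per symbol, the most abundant; of 1675 distinct symbols 1588 were in the table and 1395 were tested. Named genes were the 15 higher and 15 lower by p, up to 4 called per list, all Ah receptor and prostaglandin members, and, among called genes, 5 at each end of the interaction; others were named after their values were seen, and 1 member of a list is not reported here. Every p depends on how the authors modelled the spread of 3 libraries per group, which may be technical, since the labels call replicates independent without naming separate cultures or animals. Alternatives were other abundance limits, fold limits, variances, centring, protein-coding entries and Benjamini-Yekutieli adjustment.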

Additional observations from a re-analysis of the deposited data

Results flagged for a closer look

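The following 10 entries passed the interaction test, which asks whether the difference made by BaP beside diclofenac (mixture minus diclofenac) departs from that made by BaP alone (BaP minus Control). Values are on the log2 scale with an implied SE and an adjusted p from the approximate Wald test. The test takes the BaP dose as equal alone and in the mixture, which the sources used here do not give.

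Among Ah receptor targets foxq1a gave 2.02 ± 0.37 (adjusted p = 2.86e-04) and cyp1c1 1.70 ± 0.34 (adjusted p = 0.00245). Lens genes gave BFSP1 at -2.29 ± 0.40 (adjusted p = 7.78e-05) and crygm2d18, one of a set of near-identical copies, at -1.95 ± 0.46 (adjusted p = 0.0401). Neither lens interaction was kept with the sum of the mixture's and diclofenac's variances. The remaining entries of at least 5 CPM were aifm5 at -2.28 ± 0.45 (adjusted p = 0.00245), prx at -0.97 ± 0.21 (adjusted p = 0.00886) and stau2 at -1.03 ± 0.23 (adjusted p = 0.0182).

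Entries of low average abundance were plod3, a lysyl hydroxylase gene, at -2.53 ± 0.58 (adjusted p = 0.0291), the nonsense-mediated decay entry of med6, a Mediator subunit gene, at -15.05 ± 2.36 (adjusted p = 3.95e-06), and rpe, for a pentose phosphate epimerase, at 9.19 ± 1.96 (adjusted p = 0.00886). In the authors' deposited table med6 is at 8.07 with BaP, 9.07 with diclofenac and 2.09 with the mixture, and rpe at -7.72, 0.05 and 1.52. The mixture did not differ from diclofenac past the threshold for plod3, rpe and crygm2d18 (adjusted p = 0.420, 0.892 and 0.310).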

How the results depend on the processing

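The main setting called 79 entries for the mixture against diclofenac and 10 for the interaction. The first count moved by over 1.5 times with the median implied variance (122), the upper-bound variance (15), a limit of 1.5 log2 units (37) and Benjamini-Yekutieli adjustment (41). The interaction count did so with the median variance (30), the mean of the mixture's and diclofenac's variances (28), their sum (1) and Benjamini-Yekutieli adjustment (5). For the interaction that sum leaves out the variance of BaP and is no upper bound. The limits on size and the stricter adjustment leave fewer calls by construction; equal spread between groups could not be tested. Under the upper bound all 15 entries were among the 79. Of 77 named entries 45 were called, and 31 of the 45 were not called under the upper bound. No called entry reversed, but the alternatives could not show a reversal. They reuse the same differences, apart from a small common shift with median-centring. With no abundance filter 74 were called, 68 of them shared with the 79. Leaving out each replicate, other count tools and other normalizations were not run, since values per library were not analysed here. No paired analysis was possible because the table holds comparisons in which replicates are combined.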

Other observations

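Some called entries combined a low average abundance with a very large fold change. Among 33 tested entries with a deposited fold change over 5 log2 units at an average under 4 CPM, 4 were called here, all 4 lower in the mixture. They were srsf3a, a splicing factor gene, at -8.25 ± 1.81, a second identifier of the mitotic kinesin gene kif23 at -9.27 ± 2.38, a second identifier of ptmaa (prothymosin alpha) at -10.03 ± 2.68 and the decay-class entry of med6 at -6.98 ± 1.67 (log2, implied SE). For ptmaa the authors' deposited table lists 0.00 with BaP and with the mixture and 10.03 with diclofenac. The more abundant kif23 entry, at an average of 5.88 log2 CPM, differed by 0.30 ± 0.20 (adjusted p = 0.805). Without the 33 entries, an alternative chosen after seeing the data, 75 entries were called, 48 higher and 27 lower. Other called entries of low abundance were muc5.3, a mucin gene, at -4.88 ± 1.27, rnf207b, a ring finger gene, at 3.64 ± 0.95, the retained-intron entry of zcchc10 at 2.31 ± 0.60 and si:dkey-30c15.13 at 1.54 ± 0.39 (adjusted p = 0.0371, 0.0370, 0.0348 and 0.0310). With no abundance filter muc5.3, rnf207b, zcchc10 and ptmaa were no longer called (adjusted p = 0.0534, 0.0532, 0.0512 and 0.0706).

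Among the higher entries were 4 transcription factor genes, picked after their values were seen and belonging to no list here. The values were 0.98 ± 0.19 for foxf2a, 0.83 ± 0.18 for atoh8, 0.55 ± 0.14 for prrx1a and 0.68 ± 0.17 for dlx3b (adjusted p = 2.91e-04, 0.00170, 0.0232 and 0.0301). For foxf2a and atoh8 diclofenac alone was below Control at -0.87 and -0.89 in the authors' deposited table, and the mixture at 0.10 and -0.05. The desmosome genes jupa and pkp1b were also called, with jupa higher by 0.84 ± 0.21 and pkp1b lower by -0.70 ± 0.18 (adjusted p = 0.0214 and 0.0432). The pituitary hormone gene prl, lowered by BaP alone and raised by diclofenac alone in the authors' deposited table (-1.36 and 2.45), differed here by -0.93 ± 0.30 and did not pass (adjusted p = 0.202).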
